A study of Mus musculus with 8 samples.

Results

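The genes examined here are 8 components of the phosphoinositide 3-kinase (PI3K), AKT and FOXO pathway. They were chosen by name, with earlier results of these data known. Pik3ca and Pik3cb encode catalytic PI3K subunits, Pik3r1 a regulatory subunit, Akt1 and Akt2 kinases, and Foxo1, Foxo3 and Foxo4 forkhead transcription factors. All 8 were found among the 25913 genes of the deposited count table, and all 8 passed the filter on low counts that left 17381 genes for testing. Poly(A)-selected RNA was sequenced from the dissected olfactory epithelium of 40-week-old C57BL/6J mice. Olfactory sensory neurons lie in this epithelium beside supporting, basal, gland and immune cells.

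The study was designed around mice that lack the insulin-like growth factor 1 receptor gene, Igf1r, in olfactory sensory neurons, and their controls, with 4 libraries in each group. The library titles name one group OMP_IGF1R (replicates 11, 12, 17 and 18) and the other IGF1R_flfl (replicates 1, 2, 13 and 3). In the genotype labels the assignment is reversed, with the control genotype OMPflfl on the libraries titled OMP_IGF1R and the knockout genotype OMPIGF1 on those titled IGF1R_flfl. Groups are named by title here, every fold change is OMP_IGF1R over IGF1R_flfl, and which of the groups lacks Igf1r is not settled by the labels. Omp is a gene of mature olfactory sensory neurons, so a deletion directed by it would leave Igf1r in the other cells of the tissue. Whether each library is a different animal is not stated in the labels, and p-values measure the spread between these libraries, which may be technical. Numbers at the start of the titles do not mix between the groups, and a batch that followed them cannot be told apart from the group. The libraries held 18802471 to 27793375 counts.

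Igf1r stood at 49.6, 43.9, 34.5 and 40.5 CPM (read counts scaled to library size) in the libraries titled OMP_IGF1R and at 72.9, 55.5, 67.9 and 69.9 CPM in those titled IGF1R_flfl, so it was lower in the libraries whose genotype label names the control (log2 -0.66, edgeR adjusted p = 0.0117). This count covers exons outside any deleted part and cells that keep the gene. Markers of mature neurons had a summed level of 11809 to 13976 CPM in OMP_IGF1R, against 19706 to 27431 CPM in IGF1R_flfl. Of the 22 markers 18 fell, while 5.37% of all tested genes fell. Omp, which is among the 22 and in their sum, stood at 1708 to 2185 CPM in OMP_IGF1R and at 4470 to 6734 CPM in IGF1R_flfl (log2 -1.45, edgeR adjusted p = 0.00179). Markers of precursors and dividing cells had 299 to 363 CPM in OMP_IGF1R, against 193 to 223 CPM in IGF1R_flfl, and 11 of 12 rose, while 2.83% of all tested genes rose. Muscle markers reached 454 CPM in OMP_IGF1R 17, against 4.38 to 7.60 CPM in the other libraries, and bulb and oligodendrocyte markers reached 1382 CPM in IGF1R_flfl 2, against 45.7 to 85.8 CPM elsewhere. In RNA from whole tissue, fewer cells of a type and less RNA per cell cannot be told apart.

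Insulin and insulin-like growth factors act through receptor tyrosine kinases that recruit class I PI3K to the membrane. PI3K makes a phosphorylated membrane lipid to which AKT binds, and AKT is then activated by phosphorylation. Active AKT phosphorylates FOXO proteins, which are then held in the cytoplasm by 14-3-3 proteins and no longer drive their target genes. Much of this signalling runs through protein phosphorylation, which RNA counts do not measure. The family members have separate roles in mice: Akt1 is tied mainly to growth and Akt2 to glucose handling, and the FOXO proteins overlap in the genes they bind.

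FOXO proteins bind DNA through a forkhead core, and Ebf factors, which direct many genes of olfactory sensory neurons, bind a palindrome called the O/E site. The sequences upstream of Foxo1 and Foxo3 are shown because the fold changes of these related genes had opposite signs, and that of Akt1 because it is the member whose promoter holds the FOXO letters. Each run gives the 250 bases before the start that RefSeq annotates (GRCm38.p6), 5′ to 3′ on the gene's strand. The RefSeq start of Foxo3 lies inside the gene bounds of the deposited file, so the last part of its run falls within those bounds. The capitals mark the reverse complement of the FOXO letters in Akt1 and the O/E letters in Foxo1.
Akt1, chr12:112674885-112675134, minus strand: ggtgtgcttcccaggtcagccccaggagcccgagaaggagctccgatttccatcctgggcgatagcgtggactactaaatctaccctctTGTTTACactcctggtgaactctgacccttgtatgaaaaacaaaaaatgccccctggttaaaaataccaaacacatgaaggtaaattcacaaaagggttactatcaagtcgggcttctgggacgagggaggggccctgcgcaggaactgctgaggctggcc
Foxo1, chr3:52268087-52268336, plus strand: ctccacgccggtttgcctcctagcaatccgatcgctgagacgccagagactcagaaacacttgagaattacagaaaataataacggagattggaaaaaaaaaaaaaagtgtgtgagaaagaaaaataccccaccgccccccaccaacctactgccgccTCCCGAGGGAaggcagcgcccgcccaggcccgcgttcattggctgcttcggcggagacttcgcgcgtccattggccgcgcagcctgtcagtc
Foxo3, chr10:42276696-42276945, minus strand: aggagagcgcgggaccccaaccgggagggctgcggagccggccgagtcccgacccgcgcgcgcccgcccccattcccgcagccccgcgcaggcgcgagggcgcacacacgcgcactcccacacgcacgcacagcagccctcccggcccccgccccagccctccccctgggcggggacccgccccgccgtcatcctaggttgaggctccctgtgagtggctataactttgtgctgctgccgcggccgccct

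The letters searched were GTAAACA and its reverse complement TGTTTAC for FOXO, and TCCC, any 2 bases and GGGA, which is its own reverse complement, for the O/E site. The FOXO and O/E letters overlapped nowhere in the printed runs. The windows searched ran from 250 bases before to 50 bases after each start. The FOXO letters occurred in 3.65% of all 32851 promoter windows and the O/E letters in 0.904%. Of the 8 members, 7 had an entry, with 12 windows in all. The FOXO letters began 161 bases before the start in 1 of the Akt1 windows, and the O/E letters began 92 bases before the start of Foxo1. These are matches of letters, and no binding was measured.

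One of the 8 genes changed between the groups: Foxo3 fell in the libraries titled OMP_IGF1R, by a small margin that barely passed the test. The other 7 did not pass, and 5 of those had positive fold changes. The sign of Akt1, whose fold change was nearest to 0, turned with DESeq2 size factors and with upper-quartile factors. One called gene of 8 is 12.5%, and edgeR called 8.2% of all tested genes at an adjusted p under 0.05, 2.83% higher and 5.37% lower. DESeq2 also called 1 of the 8 (11.7% of all genes) and limma voom 0 (10.6% of all genes). At an unadjusted edgeR p under 0.05 there were 3 of the 8, Foxo3, Foxo4 and Akt2, against 23.5% of all genes. The groups did not overlap for 2 members, Foxo3 and Pik3cb, while 16.9% of all tested genes had groups that did not overlap. The median log2 fold change was 0.07 over the 8 genes and -0.01 over all genes tested.

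**Figure D1:**
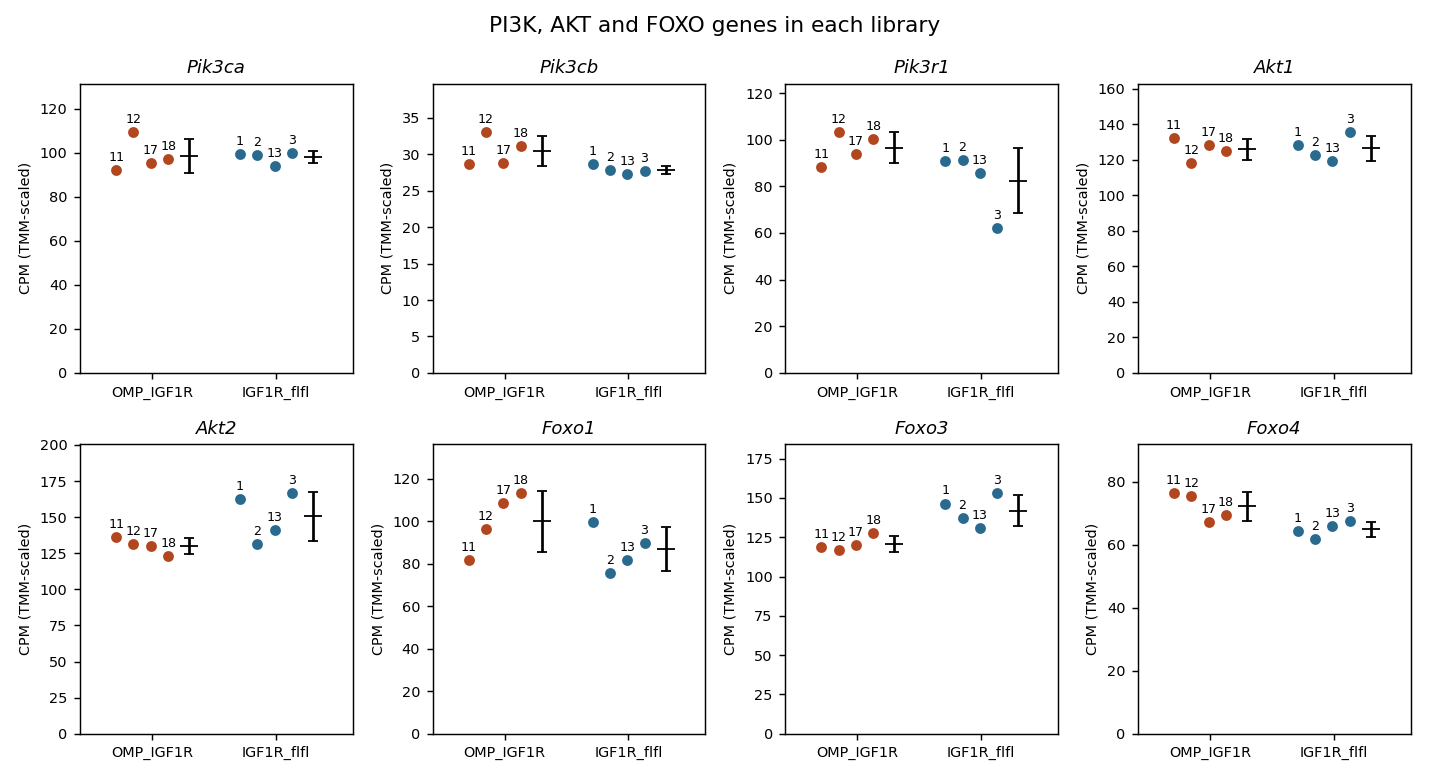
TMM-scaled CPM (vertical axes, from 0) of each of the 8 genes in each library, with OMP_IGF1R left of IGF1R_flfl; numbers are replicates, and the bars to the right of the points give the mean and SD of 4 libraries. The groups separate fully for Foxo3 and, narrowly, for Pik3cb, and IGF1R_flfl 3 is low for Pik3r1.

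Among the PI3K subunits, Pik3ca (ENSMUSG00000027665, GRCm38 chromosome 3, 32397671 to 32468486), the p110-alpha catalytic subunit used by insulin and IGF receptors, stood at 92.2, 109.5, 95.3 and 97.2 CPM in OMP_IGF1R 11, 12, 17 and 18. It stood at 99.5, 98.9, 93.9 and 99.9 CPM in IGF1R_flfl 1, 2, 13 and 3. The IGF1R_flfl values lay within the range of the OMP_IGF1R values, in which replicate 12 was highest. OMP_IGF1R averaged 98.6 ± 7.60 CPM and IGF1R_flfl 98.1 ± 2.79 CPM (SD, n = 4 each), or 0.01 as a log2 fold change (SE 0.0610, adjusted p = 0.954 by edgeR). The 95% interval of the ratio of groups ran from 0.914 to 1.11.

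Pik3cb (ENSMUSG00000032462, chromosome 9, 99038402 to 99140621), the p110-beta subunit, which also answers to G protein-coupled receptors, stood at 28.7, 33.1, 28.8 and 31.1 CPM in OMP_IGF1R and at 28.6, 27.9, 27.3 and 27.7 CPM in IGF1R_flfl. Every OMP_IGF1R library was above every IGF1R_flfl library, but OMP_IGF1R 11 and IGF1R_flfl 1 nearly touched. OMP_IGF1R averaged 30.4 ± 2.08 CPM and IGF1R_flfl 27.9 ± 0.546 CPM (SD, n = 4 each), and the difference of 0.13 on the log2 scale did not pass the test (SE 0.0602, adjusted p = 0.24 by edgeR). Without OMP_IGF1R 12 it was 0.085.

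Pik3r1 (ENSMUSG00000041417, chromosome 13, 101680761 to 101768217) encodes the p85-alpha subunit, which stabilises the catalytic subunits and docks them on receptors. It stood at 88.4, 103, 94.0 and 100.4 CPM in OMP_IGF1R and at 90.8, 91.2, 85.9 and 61.9 CPM in IGF1R_flfl. The groups overlapped, and IGF1R_flfl 3 stood far below its group. OMP_IGF1R averaged 96.5 ± 6.69 CPM and IGF1R_flfl 82.5 ± 13.9 CPM (SD, n = 4 each), or 0.23 as a log2 fold change (SE 0.117, adjusted p = 0.279 by edgeR). Without IGF1R_flfl 3 it was 0.12, so 1 library carried much of the difference.

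Of the kinases, Akt1 (ENSMUSG00000001729, chromosome 12, 112653821 to 112674884) hardly differed in its mean. It stood at 132, 118, 128 and 125 CPM in OMP_IGF1R and at 128, 122, 119 and 136 CPM in IGF1R_flfl. The groups covered nearly the same range. OMP_IGF1R averaged 125.9 ± 5.85 CPM and IGF1R_flfl 126.3 ± 7.26 CPM (SD, n = 4 each), and the 95% interval of the ratio ran from 0.909 to 1.09 (edgeR adjusted p = 0.971).

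Akt2 (ENSMUSG00000004056, chromosome 7, 27591552 to 27640826) stood at 136, 132, 129.7 and 123 CPM in OMP_IGF1R and at 163, 132, 141 and 167 CPM in IGF1R_flfl. IGF1R_flfl 2 lay among the OMP_IGF1R libraries, and the other 3 of its group lay above all of them. OMP_IGF1R averaged 130.1 ± 5.58 CPM and IGF1R_flfl 150.7 ± 16.99 CPM (SD, n = 4 each), or -0.21 as a log2 fold change (SE 0.0813, 95% interval -0.40 to -0.03). The unadjusted edgeR p was 0.027 and the edgeR adjusted p was 0.15, so Akt2 was not called.

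Of the FOXO genes, Foxo3 alone was called. Foxo3 (ENSMUSG00000048756, chromosome 10, 42181841 to 42276755), a transcription factor of stress resistance and cell cycle exit, stood at 119, 117, 119.9 and 128 CPM in OMP_IGF1R and at 146, 137, 131 and 153 CPM in IGF1R_flfl. All 4 OMP_IGF1R libraries were below all 4 IGF1R_flfl libraries. OMP_IGF1R averaged 120.8 ± 4.90 CPM and IGF1R_flfl 142 ± 9.90 CPM (SD, n = 4 each), or -0.23 as a log2 fold change (SE 0.0621, adjusted p = 0.04997 by edgeR). Its level was 0.851 times the IGF1R_flfl level with a 95% interval of 0.772 to 0.937. Foxo3 ranked 1424th by p among the 1425 genes called, so the call sits at the threshold itself.

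The call of Foxo3 was lost in 7 of the 8 fits that left out 1 library, the exception being the fit without IGF1R_flfl 13, with an edgeR adjusted p of up to 0.139. Its direction held in all 15 alternative fits, from -0.26 to -0.19 on the log2 scale. As the groups did not overlap, leaving out libraries could hardly turn the sign, and no conclusion is drawn from that. DESeq2 called it (adjusted p = 0.00994) and limma voom did not (adjusted p = 0.0659). With IGF1R_flfl 2 and OMP_IGF1R 17 both left out the log2 fold change was -0.23 (edgeR adjusted p = 0.107). Of the 22 mature neuron markers 18 fell in the same libraries, with a median log2 fold change of -0.63 over all 22, none of which was at 0 throughout, and their part in the Foxo3 difference was not tested.

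**Figure D2:**
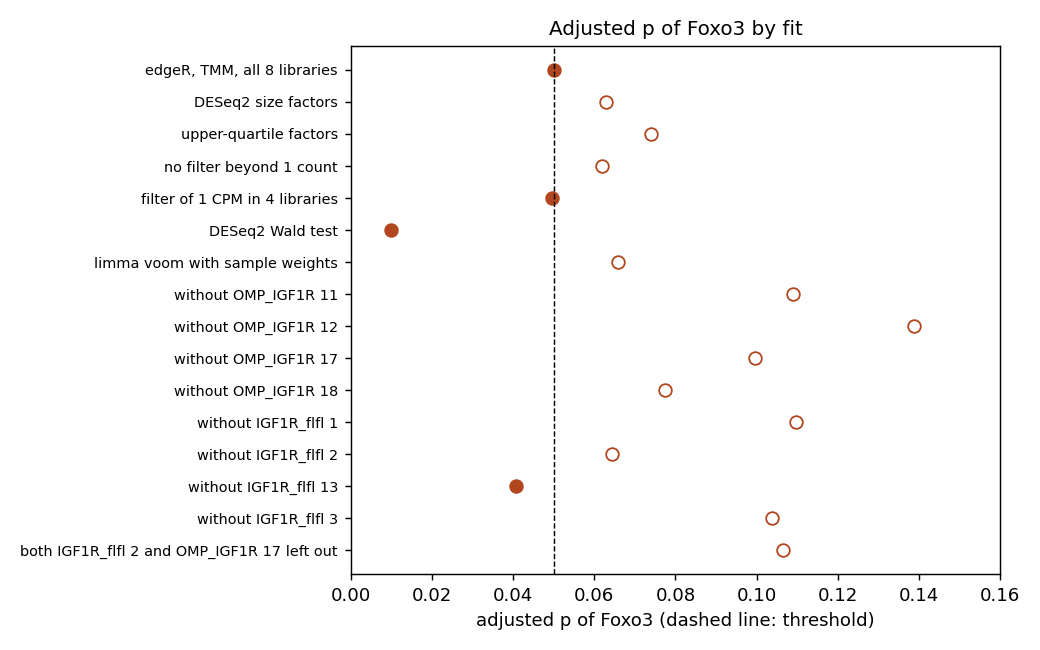
Adjusted p of Foxo3 (horizontal axis) in the fit with all 8 libraries and in 15 alternative fits (rows); filled points are under the threshold of 0.05, the dashed line. The point of the fit with all libraries lies on the line, at 0.04997, and the alternatives run from 0.00994 to 0.139.

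Foxo1 (ENSMUSG00000044167, chromosome 3, 52268337 to 52350109), the best studied FOXO target of insulin signalling, stood at 81.6, 96.2, 109 and 113 CPM in OMP_IGF1R and at 99.8, 75.8, 81.8 and 89.9 CPM in IGF1R_flfl. The groups overlapped, and each spread widely. OMP_IGF1R averaged 99.97 ± 14.2 CPM and IGF1R_flfl 86.8 ± 10.4 CPM (SD, n = 4 each), or 0.20 as a log2 fold change (SE 0.115, adjusted p = 0.322 by edgeR). Without IGF1R_flfl 2 and OMP_IGF1R 17 it was 0.12. The exons of the antisense gene Gm20402 share 674 bases with those of Foxo1 (7.78% of its exon length), and Gm20402 held 85 to 191 counts per library against 1600 to 2955 for Foxo1. The strand setting of the counting is not given in the sources used here, so reads there may come from either gene.

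Foxo4 (ENSMUSG00000042903, chromosome X, 101254528 to 101260873), an X-linked family member, stood at 76.5, 75.2, 67.2 and 69.4 CPM in OMP_IGF1R and at 64.2, 61.7, 65.9 and 67.3 CPM in IGF1R_flfl. OMP_IGF1R 17 lay just under IGF1R_flfl 3, and the groups were otherwise apart. OMP_IGF1R averaged 72.1 ± 4.50 CPM and IGF1R_flfl 64.8 ± 2.43 CPM (SD, n = 4 each), or 0.15 as a log2 fold change (SE 0.0560, 95% interval 0.03 to 0.28). The unadjusted edgeR p was 0.0214 and the edgeR adjusted p was 0.132, so it was not called. The X-inactivation transcript Xist held 4 to 18 counts and each of 4 Y-linked genes 488 to 1608 counts in every library. Foxo6, the fourth family member, named after its values were seen, averaged 57.5 ± 7.61 CPM in OMP_IGF1R and 65.4 ± 11.2 CPM in IGF1R_flfl (edgeR adjusted p = 0.42, n = 4 each).

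**Figure D3:**
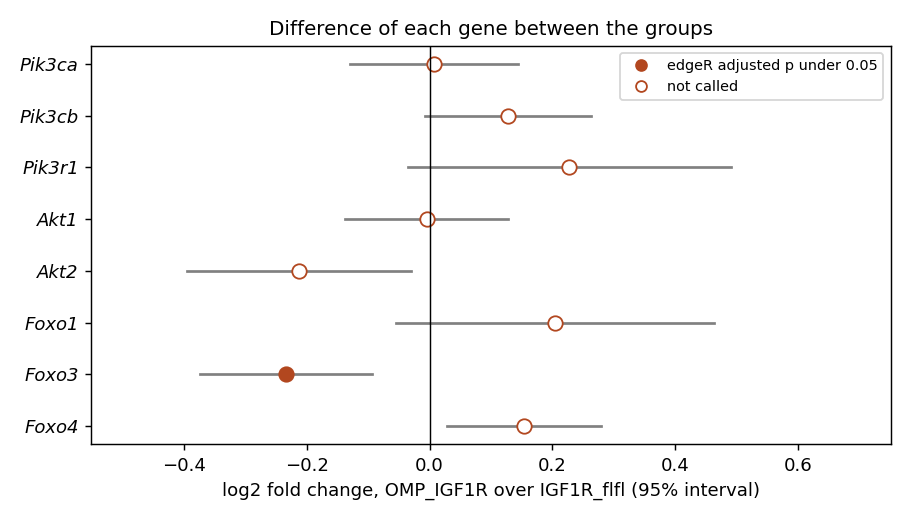
Log2 fold change of OMP_IGF1R over IGF1R_flfl (horizontal axis) for the 8 genes, with 95% intervals from the edgeR fit; the filled point passed an adjusted p under 0.05. Foxo3 at -0.23 and Akt2 at -0.21 lie left of 0, Pik3ca and Akt1 lie near 0, and the widest intervals are those of Pik3r1 and Foxo1.

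In the authors' deposited table, whose header does not state the direction of its contrast, Foxo3 was at -0.22 with an adjusted p of 0.00894. That table gives Omp a log2 fold change of -1.28 and Igf1r one of -0.58. Both had the sign of the edgeR values of OMP_IGF1R over IGF1R_flfl, which were -1.45 and -0.66. The other 7 genes had adjusted p-values between 0.0796 (Foxo4) and 0.992 (Akt1) in the authors' deposited table.

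The ratio of 2 family members within a library does not depend on how libraries are scaled. Foxo1 counts were 0.687, 0.825, 0.906 and 0.888 times those of Foxo3 in OMP_IGF1R, against 0.681, 0.552, 0.624 and 0.586 times in IGF1R_flfl. The groups did not overlap, although OMP_IGF1R 11 and IGF1R_flfl 1 nearly met. Foxo4 counts were 0.644, 0.645, 0.560 and 0.543 times those of Foxo3 in OMP_IGF1R, against 0.438, 0.450, 0.503 and 0.439 times in IGF1R_flfl, again with no overlap. The difference of mean log2 ratios was 0.43 for Foxo1 over Foxo3 and 0.38 for Foxo4 over Foxo3. The ratio of Foxo1 to Foxo4 overlapped between the groups (difference 0.05, exact permutation test, two-sided, adjusted p = 0.743).

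Pik3ca counts were 3.21, 3.31, 3.31 and 3.13 times those of Pik3cb in OMP_IGF1R, against 3.48, 3.55, 3.44 and 3.61 times in IGF1R_flfl, a log2 difference of -0.12 with no overlap. Pik3r1 counts were 0.958, 0.944, 0.987 and 1.03 times those of Pik3ca in OMP_IGF1R, against 0.913, 0.922, 0.914 and 0.620 times in IGF1R_flfl. That log2 difference of 0.24 shrank to 0.096 without IGF1R_flfl 3. The ratio of Akt1 to Akt2 was 0.899 to 1.02 in OMP_IGF1R and 0.787 to 0.929 in IGF1R_flfl (log2 difference 0.20), with overlap (exact permutation test, two-sided, adjusted p = 0.08). Pik3r1 over Pik3cb also overlapped (log2 difference 0.12, exact permutation test, two-sided, adjusted p = 0.743).

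Of the 7 ratios, the 4 without overlap each had p = 0.0286 in an exact two-sided permutation test (n = 4 each), the smallest that 70 arrangements allow. Their adjusted p over the 7 ratios was 0.05, at the threshold and not under it, so none was called. With only 4 of the 7 ratios at this smallest p, the adjusted p of this test can go no lower. The test could therefore not call them, and no conclusion is drawn from that. Ratios that share a gene are not independent of one another, and Foxo3 enters both FOXO ratios that separated the groups. For single genes, the groups did not overlap in 16.9% of those tested, and ratios of other gene pairs were not examined.

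**Figure D4:**
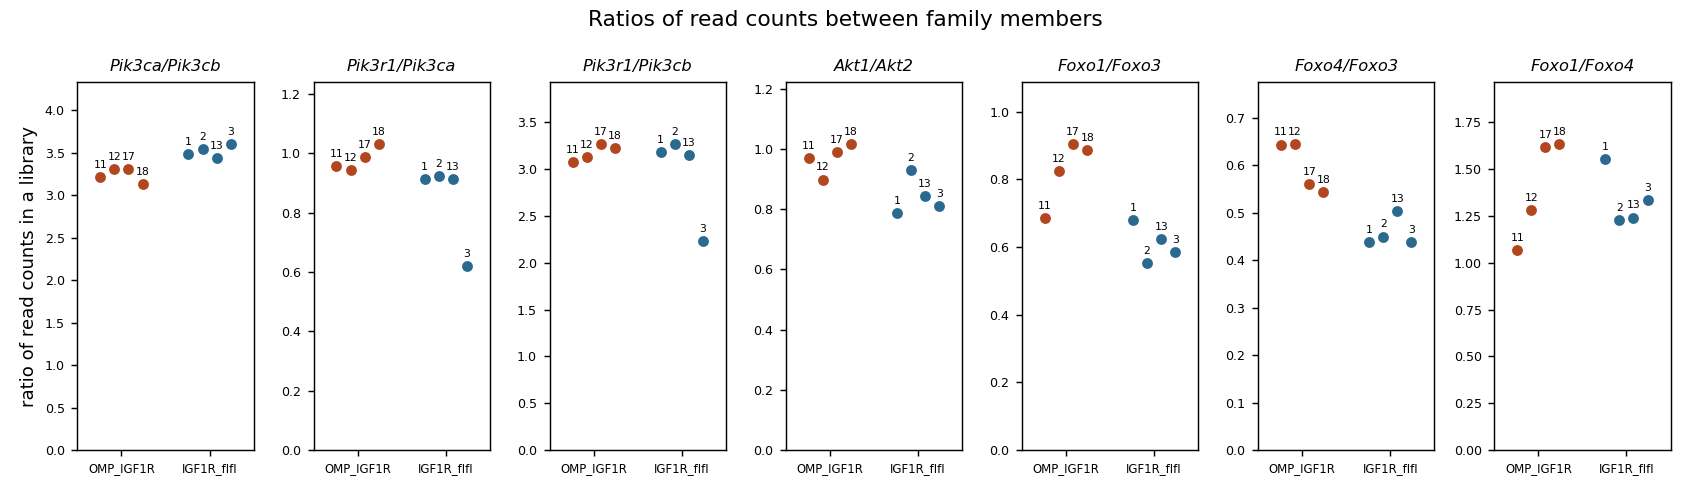
Ratio of read counts between family members within each library (vertical axes, from 0), with OMP_IGF1R left of IGF1R_flfl and replicate numbers above the points. The groups separate for Pik3ca over Pik3cb, Pik3r1 over Pik3ca, Foxo1 over Foxo3 and Foxo4 over Foxo3, and IGF1R_flfl 3 is low in both Pik3r1 ratios.

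Levels of the genes were compared per kilobase of exon (CPM per kilobase over the exons of the basic GENCODE M21 annotation, mean of 8 libraries). Akt1 was the highest at 46.9, followed by Akt2 at 29.1, Foxo4 at 21.6 and Foxo3 at 17.7. Pik3r1 at 11.8, Pik3ca at 10.8 and Foxo1 at 10.8 followed, and Pik3cb was the lowest at 4.50. The ranges over libraries of Akt1 (44.0 to 50.4), Akt2 (25.4 to 34.6) and Pik3cb (4.21 to 5.11) met no neighbour's, while Foxo4 (19.5 to 24.2) overlapped Foxo3 (15.7 to 20.7), and Pik3r1, Pik3ca and Foxo1 overlapped one another. With exon lengths of the comprehensive annotation Akt2 and Foxo4 were level, at 19.7 and 19.6, and Pik3r1 came below Foxo1, at 8.88 against 10.8.

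Replicate spread differed among the members. The pooled SD within groups was 0.071 for Pik3cb, 0.074 for Foxo4, 0.075 for Akt1, 0.082 for Pik3ca and 0.082 for Foxo3 on the log2 scale. These lay under the median of 0.099 for the 6075 genes in the members' range of expression. Akt2 stood at 0.124, and Pik3r1 and Foxo1 at 0.201 and 0.193, above about 9 in 10 of those genes (percentiles 91.8 and 90.7). Between members, the profiles of Pik3ca and Pik3cb were the closest pair, with a root mean square difference of 0.066 in centred log2 CPM over the 8 libraries, and those of Akt2 and Foxo3 were 0.092 apart. Pik3r1 and Akt2 were the farthest apart, at 0.338.

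By the same measure over all tested genes, the profiles nearest to Foxo3 were those of Prkcz, an atypical protein kinase C (0.038), and Scaf8 (0.042). Nearest to Akt2 were Il4ra, an interleukin 4 receptor subunit (0.033), and C030034I22Rik (0.036). Nearest to Foxo4 were Mkl1, a coactivator of serum response factor (0.026), and Mettl13 (0.029). Pik3ca lay nearest to Tox4 (0.024) and Slc35e2 (0.029), Pik3cb to Nup155, a nuclear pore protein (0.029), and Polr3b, an RNA polymerase III subunit (0.031), and Akt1 to Pigs (0.021) and Daglb (0.024). Pik3r1 lay nearest to Kctd12b (0.049) and Apod, a lipocalin (0.053). Foxo1 had no such close neighbour, its nearest being Ldb3, a protein of muscle Z-discs, and Epb4.1l4a, at 0.089 and 0.090. With 8 libraries and 17381 genes, near profiles are a description.

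Of the wider pathway, 77 of 83 listed genes were tested, from lists also chosen with earlier results of these data known. EdgeR called 6 of the 77 higher and none lower in the libraries titled OMP_IGF1R. That is 7.79% called, all of them higher, against 8.2% of all genes, of which 2.83% were higher and 5.37% lower. The median log2 fold change was 0.02. The genes that rose were Pik3cd, Pik3r5 and Inpp5d, and the FOXO targets Ccng2, Cdkn1a and Gadd45a. DESeq2 called 12 of the 77, against 11.7% of all genes, and voom 8, against 10.6%. Not all of these were higher: DESeq2 called Pik3c2b (log2 -0.25) and Inpp4a (-0.24) lower, and voom called Pik3c2b lower (-0.25). The edgeR count was 2 without OMP_IGF1R 12 or without OMP_IGF1R 18 and 3 without OMP_IGF1R 11 or without IGF1R_flfl 13.

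Pik3cd, Pik3r5 and Inpp5d are known mainly from blood cells. Pik3cd, the catalytic p110-delta subunit of leukocytes, stood at 19.6, 17.97, 17.3 and 18.9 CPM in OMP_IGF1R and at 14.6, 12.5, 12.7 and 14.2 CPM in IGF1R_flfl (log2 0.45, SE 0.0821, edgeR adjusted p = 0.0131). The groups did not overlap, and it was the only gene that edgeR called of 5 other catalytic subunits tested. Pik3r5, the p101 partner of p110-gamma in leukocytes, averaged 6.20 ± 1.21 CPM in OMP_IGF1R and 2.99 ± 0.763 CPM in IGF1R_flfl (n = 4 each, log2 1.05, edgeR adjusted p = 0.0181), 1 call among 7 regulatory genes. Inpp5d, the lipid phosphatase SHIP1, averaged 11.8 ± 1.45 CPM in OMP_IGF1R and 7.71 ± 1.62 CPM in IGF1R_flfl (n = 4 each, log2 0.61, edgeR adjusted p = 0.0452), 1 call among 6 lipid phosphatases. Pik3cg, the p110-gamma subunit, named after its values were seen, averaged 9.82 ± 2.07 CPM in OMP_IGF1R and 6.12 ± 1.37 CPM in IGF1R_flfl and was not called (n = 4 each, edgeR adjusted p = 0.0722).

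These 3 genes had lower CPM than any of the members, and their calls depended on single libraries to different degrees. Pik3cd kept its call in 14 of 15 alternative fits, Pik3r5 in 13 and Inpp5d in 6. Pik3cd lost its call only without OMP_IGF1R 18 (edgeR adjusted p = 0.0506). Pik3r5 lost it without OMP_IGF1R 12 or 18 (up to 0.0588), and Inpp5d without any 1 library but IGF1R_flfl 1 (up to 0.132). Inpp5d also lost it with no filter beyond 1 count (edgeR adjusted p = 0.055) and without IGF1R_flfl 2 and OMP_IGF1R 17 together (edgeR adjusted p = 0.0839). The 6 macrophage markers had a summed level of 131 to 144 CPM in OMP_IGF1R, against 101.5 to 136 CPM in IGF1R_flfl. All 6 had positive fold changes with a median of 0.25, edgeR called none of them (2 at an unadjusted p under 0.05, 0 by DESeq2 or voom), and none was at 0 throughout. Their part in the rise of the PI3K genes was not tested. The members of these lists with the next smallest p were Pik3c2b (log2 -0.25, edgeR adjusted p = 0.0519), a class II PI3K, Inpp4a (-0.25, edgeR adjusted p = 0.0519), a lipid phosphatase, and Pik3ip1 (0.25, edgeR adjusted p = 0.082), an inhibitor of PI3K, and none of these passed. DESeq2 called all 3, with adjusted p-values of 0.0255 for Pik3c2b, 0.0253 for Inpp4a and 0.0317 for Pik3ip1. Voom also called Pik3c2b (adjusted p = 0.0365). EdgeR called Pik3c2b without IGF1R_flfl 2 (adjusted p = 0.0405) and Inpp4a without IGF1R_flfl 1 (adjusted p = 0.0368).

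**Figure D5:**
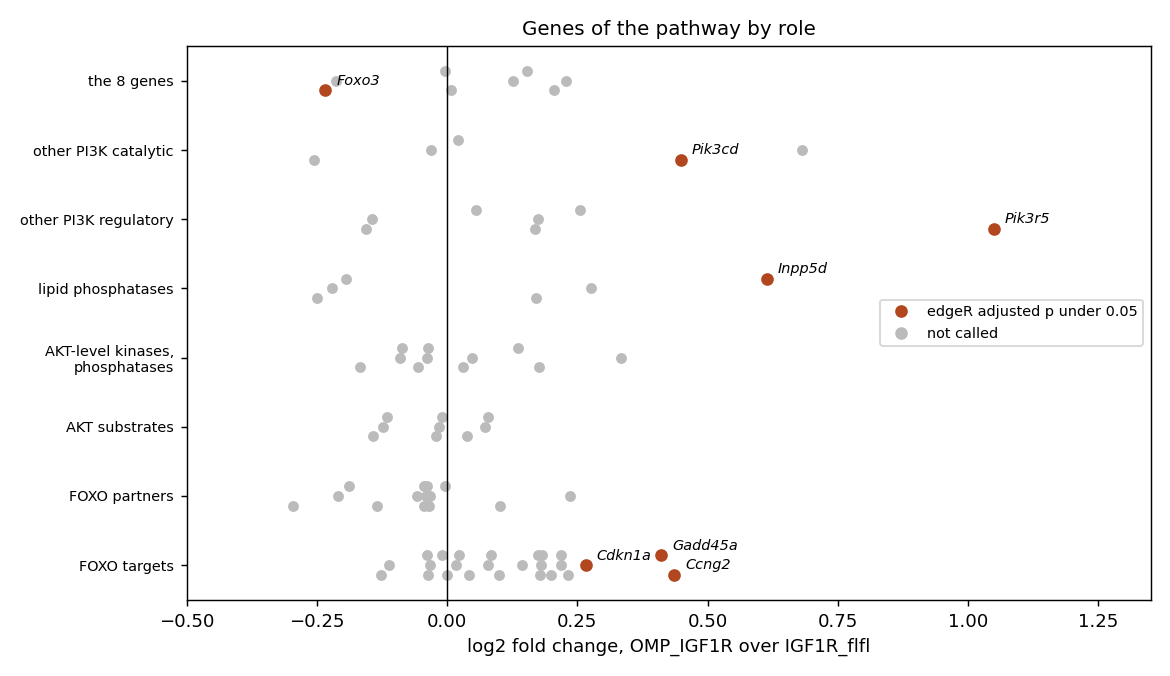
Log2 fold change of OMP_IGF1R over IGF1R_flfl (horizontal axis) of each tested gene, in rows by role; coloured points passed an edgeR adjusted p under 0.05 and are named, and small vertical shifts only keep points apart. Foxo3 is the sole called gene left of 0, and no gene of the AKT-level, AKT substrate or FOXO partner lists passed.

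EdgeR called 0 of 11 kinases and phosphatases around AKT, 0 of 9 AKT substrates and 0 of 14 FOXO partners, with 1 gene of each list at an unadjusted p under 0.05, and DESeq2 and voom called 0 in each. Over all tested genes edgeR called 8.2%, DESeq2 11.7% and voom 10.6%, and for 23.5% the edgeR p before adjustment was under 0.05. The smallest p-values belonged to Ppp2cb (log2 0.14), a catalytic subunit of protein phosphatase 2A, and Trib3 (0.33), an AKT-binding pseudokinase, with edgeR adjusted p-values of 0.17 and 0.247, and the log2 fold change of Trib3 was 0.20 without OMP_IGF1R 11. Among substrates they belonged to Tsc2 (-0.14), the brake on mTOR complex 1, and Gsk3a (-0.12), a glycogen synthase kinase (edgeR adjusted p = 0.157 and 0.224), and that of Gsk3a was -0.07 without IGF1R_flfl 3. Among FOXO partners they belonged to Skp2 (0.24), which targets FOXO1 for degradation, and Ywhaz (-0.14), a 14-3-3 protein (edgeR adjusted p = 0.186 and 0.275).

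The median log2 fold change of the 25 tested genes known as FOXO targets from other tissues or cell lines was 0.10. EdgeR called 3 of the 25 higher and none lower. That is 12% called, all of them higher, against 8.2% of all genes, of which 2.83% were higher and 5.37% lower. All 3 genes that rose are tied to arrest of the cell cycle. Ccng2, an unusual cyclin, stood at 35.8, 38.9, 37.1 and 39.4 CPM in OMP_IGF1R and at 30.1, 26.0, 25.8 and 29.8 CPM in IGF1R_flfl (log2 0.44, SE 0.0699, edgeR adjusted p = 0.0087). The groups were well apart, and the call held in all 15 alternative fits. Cdkn1a, the cell cycle inhibitor p21, averaged 66.0 ± 3.82 CPM in OMP_IGF1R and 54.9 ± 3.51 CPM in IGF1R_flfl (n = 4 each, log2 0.27, edgeR adjusted p = 0.0301), and Gadd45a, a gene of the DNA damage response, averaged 15.1 ± 1.10 CPM in OMP_IGF1R and 11.4 ± 1.21 CPM in IGF1R_flfl (n = 4 each, log2 0.41, edgeR adjusted p = 0.036).

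Cdkn1a lost its call without OMP_IGF1R 11, 12 or 17 or IGF1R_flfl 1 or 13 (edgeR adjusted p up to 0.0824) and without IGF1R_flfl 2 and OMP_IGF1R 17 together (0.0989), and Gadd45a without any 1 library but OMP_IGF1R 17 or IGF1R_flfl 1 (up to 0.112). The targets Trim63, Pck1, G6pc, Igfbp1 and Fasl were below the filter, with at most 32 counts in a library. In the promoter windows, 4 of the 26 listed targets with an entry held the FOXO letters, namely Bcl2l11, Sesn1, Trim63 and Txnip. That was 4 of 30 windows, while 3.65% of all promoter windows held the letters. The windows of Ccng2, Cdkn1a and Gadd45a did not hold them. Of the 12 markers of precursors and dividing cells 11 rose in the same libraries (median log2 0.88 over all 12), as did 8 of 12 immature neuron markers, and their part in the rise of the 3 targets was not tested.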

How the data were processed

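RNA sequencing libraries of dissected olfactory epithelium were prepared with a stranded, poly(A)-selecting kit, per the labels' protocols. The deposited counts are whole numbers for each gene in each library, with no scaling. Per the submitters' processing notes, the tools were TopHat2 2.0.14, Trim Galore 0.3.7, DESeq2 and SAMtools 1.2, and the build was GRCm38. How reads were counted, and on which strand, is not given in the sources used here. The authors' deposited table gives a normalized mean signal, log2 fold changes, a test score and p-values per gene, per the file headers, and was used for description.

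In R 4.3.3, edgeR 4.0.16 was run on the counts with filterByExpr, TMM scaling and its quasi-likelihood F-test. P-values were adjusted over 17381 genes by Benjamini-Hochberg, and the threshold was 0.05. Library totals ran from 18802471 to 27793375 counts. CPM values use TMM effective library sizes. For ratios of counts, 4 against 4 libraries were permuted exactly (two-sided, 70 arrangements). Exon lengths came from GENCODE M21. Marker sums received no test. The fits were tested on simulated data. No library pair within a group agreed within sampling noise (mean chi-square per gene 11.9 to 109). Alternatives were DESeq2 size factors, upper-quartile factors, other filters, DESeq2 1.42.0, limma 3.58.1 voom, a count offset of 10 in the ratios and leaving out libraries. Comprehensive exon lengths were added after seeing the data.

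The members and lists were chosen with earlier results of these data known. Named genes were the 8 members, Igf1r and Omp, the called genes of each list or the 2 with the smallest p where fewer than 2 were called, and the 2 genes closest to each member in profile. A list member withheld is not reported here.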

Additional observations from a re-analysis of the deposited data

Results flagged for a closer look

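Samples far from the others of their group were looked for in 64 groups of 4 libraries, of which chance flags about 1 in 20, and 4 were found. In IGF1R_flfl 3, Pik3r1 counts were 0.620 times those of Pik3ca, against 0.913 to 0.922 times in the others of its group, and 2.23 times those of Pik3cb, against 3.15 to 3.27 times. Gsk3a stood at 132 CPM in the same library, against 115 to 117 CPM in the others titled IGF1R_flfl. Tsc2 stood at 104 CPM in OMP_IGF1R 11, against 96.1 to 97.3 CPM in the others titled OMP_IGF1R.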

How the results depend on the processing

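The Foxo3 log2 fold change kept its sign in all 15 alternative fits and ran from -0.26 to -0.19 with 1 library left out. As its groups did not overlap, leaving out libraries could hardly turn that sign. The call was lost under DESeq2 size factors (-0.22), upper-quartile factors (-0.20), no filter beyond 1 count (-0.23), voom (-0.19) and without IGF1R_flfl 2 and OMP_IGF1R 17 (-0.23). The number of members called was then 0 in each of these 5 settings, and 0 to 1 with 1 library left out. The cause was not tested. Akt1, which was not called in any fit, changed sign to 0.0041 with DESeq2 size factors, 0.027 with upper-quartile factors, 0.0015 with no filter beyond 1 count, 0.0017 with DESeq2 and 0.0053 with voom, and ran from -0.029 to 0.038 with 1 library left out. Pik3ca, also never called, ran from -0.047 to 0.038 with 1 library left out. The log2 ratio difference of Foxo1 over Foxo4 ran from -0.035 to 0.17 with 1 library left out and was -0.069 without IGF1R_flfl 2 and OMP_IGF1R 17, and that of Pik3r1 over Pik3cb ran from -0.011 to 0.17 with 1 library left out. DESeq2 called 12 pathway genes in place of 6, and the count was 2 to 7 with 1 library left out. The number of genes called over all genes was 1425, and 569 to 1477 with 1 library left out (724 without OMP_IGF1R 11, 613 without OMP_IGF1R 12, 569 without OMP_IGF1R 18, 841 without IGF1R_flfl 1 and 886 without IGF1R_flfl 3). The other members were not called in any fit and kept their sign. No paired analysis was possible because the groups share no replicate number. Genes of few reads, such as Pik3r5, are measured less precisely than the members, each of which had at least 563 counts in every library.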
